A study of Mus musculus with 6 samples.

Results

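The matrix metalloproteases (MMPs), the ADAM and ADAMTS proteases, the ADAMTS-like proteins and the tissue inhibitors of metalloproteases (TIMPs) were examined in cultured stromal-vascular cells of mouse inguinal fat. They were chosen by name, as all rows of the deposited table whose symbol is Mmp, Adam, Adamts or Adamtsl followed by a number, or Timp1 to Timp4. That gave 84 of 24197 genes: 23 Mmp, 33 Adam, 19 Adamts, 5 Adamtsl and 4 Timp genes. The 6 libraries came from C57BL/6 cells of the inguinal depot, grown in standard medium, 3 with a Prdm16 retrovirus and 3 with a control (puro) retrovirus. No adipogenic treatment is recorded, and the labels do not say whether replicates were separate cultures or animals, so the spread behind each p-value is that among 3 libraries and could be technical.

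MMPs are zinc-dependent proteases, secreted or bound to the membrane, that are made as inactive precursors and cleave collagens, other matrix proteins and growth factor carriers. ADAMs are membrane proteases known above all for shedding the outer part of other membrane proteins, while the secreted ADAMTS proteases trim procollagens and cut proteoglycans, and the ADAMTS-like proteins share their ancillary domains but have no protease domain. TIMPs block these proteases to different degrees, and in adipose tissue the balance between them is known for its part in how the pericellular collagen network is opened as fat cells form and enlarge.

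Levels are read counts or CPM, counts scaled to library size after TMM normalization, with means ± SD over the 3 libraries of a group (n = 3 each). Levels of different genes are compared only per kilobase of annotated exon, as RPKM, the CPM divided by that length. Log2 fold changes are Prdm16 over puro ± SE, from edgeR's quasi-likelihood test. That SE was derived as the size of the log2 fold change divided by the square root of the test's F statistic. It is an approximation and can be too small where a group holds few counts. P-values were adjusted by Benjamini-Hochberg over the 13805 genes that passed the filter on low counts. A gene is said to have risen or fallen where that adjusted p was below 0.05. Library totals ran from 28169059 to 35798201 counts, and a gene at 0 counts could have a level of up to 0.0852 to 0.104 CPM (3 counts). Prdm16 itself had 98437, 72525 and 89054 counts in the Prdm16 libraries and 14, 22 and 25 in the puro libraries. The members together took up 0.324% to 0.330% of all reads counted in Prdm16 libraries and 0.383% to 0.386% in puro libraries.

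Of the markers of the labelled cell type, Pdgfra had 188 CPM in the Prdm16 libraries and 199 CPM in the puro libraries. The 7 mesenchymal markers summed to 1653 to 1773 CPM in the Prdm16 libraries and 5994 to 6809 CPM in the puro libraries, with 5 lower and 1 higher. Markers of neutrophils and lymphocytes stayed at or below 0.242 CPM in sum in every library. Of 7 epithelial markers, 4 were tested and rose, the sum being 26.7 to 28.2 CPM in the Prdm16 libraries and 0.258 to 0.328 CPM in the puro libraries. Krt5, Krt8 and Krt14 were untested, with at most 4 counts over either group. Adipocyte markers summed to 517 to 616 CPM in the Prdm16 libraries and 104 to 122 CPM in the puro libraries. Nearly all of this was Fabp4, with means of 551 and 115 CPM in the same order of groups. Fabp4, Adipoq and Cidec rose. Plin1 and Lep were untested, with 9 and 5 counts over the Prdm16 group and 10 and 0 over the puro group. The 7 endothelial markers summed to 9.06 to 11.9 CPM in the Prdm16 libraries and 1.67 to 1.83 CPM in the puro libraries. Of these, Tek rose, Kdr did not pass, and Cdh5 and Cldn5 were at 0 in all libraries. Pecam1, Emcn and Tie1 were untested, with at most 16 counts over a group. The 5 pericyte markers summed to 193 to 217 CPM in the Prdm16 libraries and 148 to 171 CPM in the puro libraries. Among them Notch3 rose, while Cspg4 and Rgs5 fell. The part of these shifts in the results was not tested, and in bulk RNA fewer cells of a type and less RNA per cell cannot be told apart.

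The filter kept 48 of the 84 members. Of these 48, 10 rose, 34 fell and 4 did not pass, so that 91.7% were called against 75.6% of all tested genes, 20.8% rose against 37.5%, and 70.8% fell against 38.0%. The median log2 fold change of the 48 was −0.70 and that of all tested genes −0.01. A fall of at least 1 on the log2 scale was seen in 16 of them (12.1% of all tested genes) and a rise of at least 1 in 5 (9.69%), and the groups did not overlap for 44 (77.6% of all tested genes). Because a gene could pass the filter through the group where it is high, 5 of the 48 (Mmp9, Mmp13, Adam32, Adamts16 and Adamtsl2) passed through the puro libraries only and 3 (Mmp17, Mmp24 and Adam4) through the Prdm16 libraries only. Of the 40 that exceeded the minimum in every library of both groups, 8 rose, 29 fell and 3 did not pass.

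**Figure D1:**
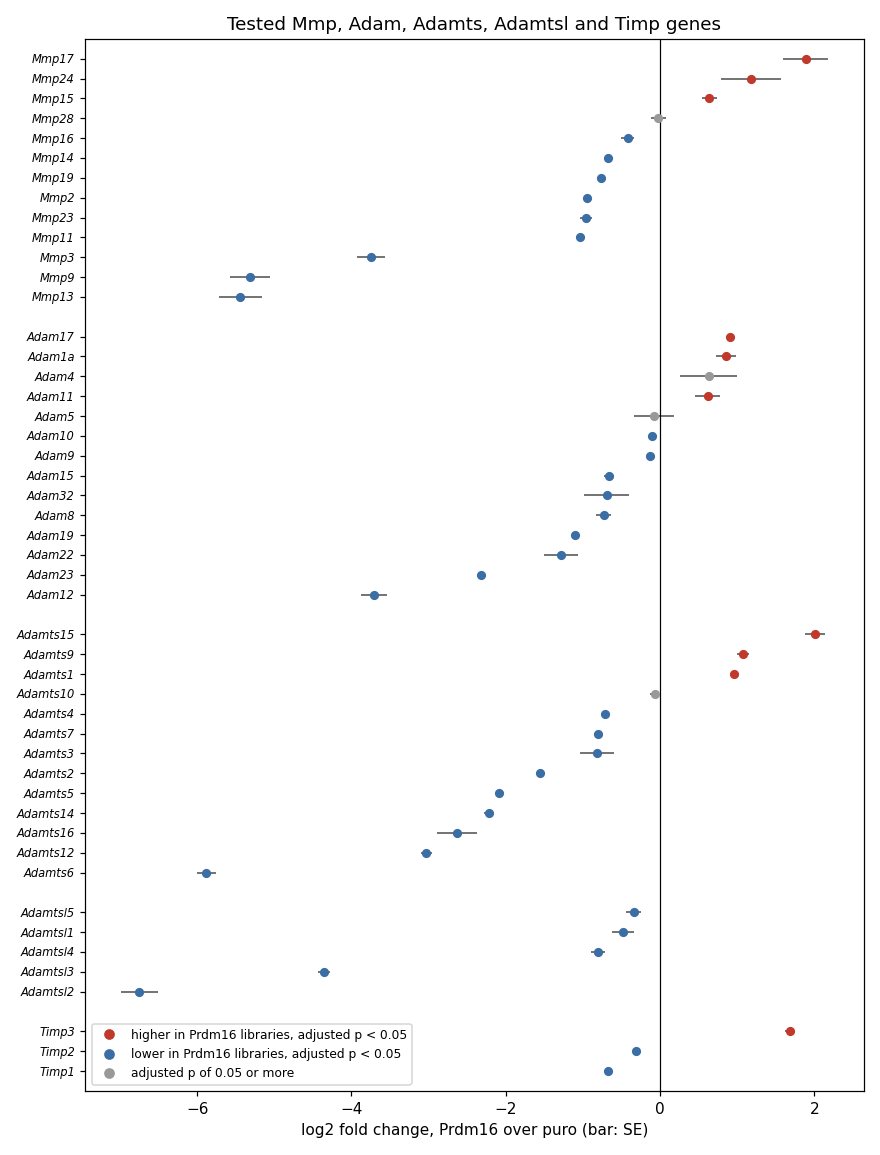
Log2 fold changes, Prdm16 over puro, of the 48 tested members by family, with bars for the SE and colours for the call at an adjusted p of 0.05. Most points lie left of 0, from −6.75 for Adamtsl2 to 2.01 for Adamts15; each family except the ADAMTS-like genes holds at least 1 gene that rose.

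The promoters of 4 members are shown, as the 250 bases before the RefSeq start site (build GRCm38.p6). These members, and the motif marked in each, were picked with the results known. Mmp13 (chr9:7272264-7272513, plus strand) and Mmp3 (chr9:7445572-7445821, plus strand) lie in one cluster and fell far. Capitals mark the match to the AP-1 motif TGANTCA, which starts 35 bases before the start site in Mmp13 and 46 before it in Mmp3.
Mmp13: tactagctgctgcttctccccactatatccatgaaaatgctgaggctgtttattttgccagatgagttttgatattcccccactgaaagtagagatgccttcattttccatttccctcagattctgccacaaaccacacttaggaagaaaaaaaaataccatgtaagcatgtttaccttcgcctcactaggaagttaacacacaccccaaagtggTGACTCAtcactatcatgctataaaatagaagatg
Mmp3: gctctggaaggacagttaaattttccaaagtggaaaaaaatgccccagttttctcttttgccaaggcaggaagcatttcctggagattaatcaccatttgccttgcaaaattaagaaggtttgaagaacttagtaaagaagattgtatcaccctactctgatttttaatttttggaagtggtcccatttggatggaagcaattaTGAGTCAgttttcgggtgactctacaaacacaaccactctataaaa
Adamts1 (chr16:85803114-85803363, minus strand) and Timp3 (chr10:86300162-86300411, plus strand) rose. Capitals here mark matches to the GC box GGGCGG or its reverse complement, 3 in Adamts1 and 1 in Timp3.
Adamts1: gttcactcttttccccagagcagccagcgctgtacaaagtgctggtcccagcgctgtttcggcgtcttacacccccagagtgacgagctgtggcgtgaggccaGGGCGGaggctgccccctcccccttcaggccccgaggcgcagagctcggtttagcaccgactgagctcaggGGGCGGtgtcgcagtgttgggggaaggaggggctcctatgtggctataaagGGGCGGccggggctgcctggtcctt
Timp3: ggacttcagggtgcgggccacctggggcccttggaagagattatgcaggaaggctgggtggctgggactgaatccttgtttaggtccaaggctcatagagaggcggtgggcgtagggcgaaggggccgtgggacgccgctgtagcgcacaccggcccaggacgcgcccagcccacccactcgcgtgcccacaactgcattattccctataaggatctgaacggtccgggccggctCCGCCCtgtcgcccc
Windows were found for 53 of the 84 members, and both strands were searched. The AP-1 motif was in 6.75% of all 32851 windows, in 4.64% of the windows of tested genes, in 0 of 7 windows of members that rose in 3 of 24 windows of members that fell and in 9 of 27 windows of the other members. The GC box was in 32.7% of all windows, in 57.3% of those of tested genes, in 6 of 7 windows of members that rose in 14 of 24 of members that fell and in 4 of 27 of the other members. Of 7 windows of members that fell by at least 2 on the log2 scale, 2 held the AP-1 motif and 3 the GC box. Matches to the 2 motifs did not overlap in the members' windows.

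The inhibitors changed in unequal ways. Timp3, which binds the extracellular matrix and is known to inhibit ADAM17 and the aggrecanases besides MMPs, had 8324, 8158 and 9194 counts in the Prdm16 libraries and 2543, 2986 and 2675 in the puro libraries. Its mean level was 265 ± 24.6 CPM in Prdm16 libraries and 82.4 ± 2.97 CPM in puro libraries, a rise of 1.68 ± 0.06 on the log2 scale (adjusted p = 8.82e-10). All 3 Prdm16 libraries lay far above the highest puro library. Timp3 lies inside the gene of the synapsin Syn3 on the other strand, and 21.3% of its annotated exon bases overlap Syn3 exons; Syn3 had 463 counts over the Prdm16 group and 94 over the puro group.

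Timp2, which takes part in the activation of pro-MMP2 by MMP14 as well as in inhibition, had 22608, 18807 and 21420 counts in Prdm16 libraries and 24915, 28346 and 26230 in puro libraries. It fell by 0.31 ± 0.03 on the log2 scale (adjusted p = 4.62e-06), to 644 ± 4.50 CPM in Prdm16 libraries against 799 ± 15.9 CPM in puro libraries. Timp1, a soluble inhibitor of most MMPs, had 1027, 758 and 922 counts in Prdm16 libraries and 1372, 1534 and 1487 in puro libraries, a log2 fold change of −0.67 ± 0.05 (adjusted p = 2.46e-07). For both genes the groups were apart. Timp4, an inhibitor known from heart and fat, was too low to be tested, with 7, 7 and 10 counts in Prdm16 libraries and 2, 1 and 2 in puro libraries, or 4.89 times as many relative to library size (exact 95% interval from counting, 1.83 to 16.4).

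Per kilobase, Timp2 stayed the most abundant inhibitor, at 165 ± 1.15 RPKM in Prdm16 libraries and 205 ± 4.09 RPKM in puro libraries. Timp3, at 32.5 ± 3.02 RPKM, and Timp1, at 31.1 ± 1.68 RPKM, were within their spread of each other in the Prdm16 libraries, whereas in the puro libraries Timp3 had 10.1 ± 0.364 RPKM and Timp1 had 49.7 ± 0.202 RPKM. Timp3 made up 12.8%, 15.0% and 14.7% of the summed TIMP level in Prdm16 libraries and 3.78%, 3.91% and 3.76% in puro libraries (exact permutation test over libraries, two-sided p = 0.1, the smallest that 3 against 3 allows). The summed level of the 4 TIMPs was 0.864 times as high in Prdm16 as in puro libraries and that of the MMPs 0.565 times, and the ratio of summed TIMP to summed MMP level was 2.39 ± 0.128 in Prdm16 libraries and 1.56 ± 0.0206 in puro libraries (exact permutation test, two-sided p = 0.1). Of 45 sums, shares and ratios compared in this way, among them 2 role sums that equal a family sum, 43 gave this p and none reached 0.05 (smallest adjusted p 0.105, Benjamini-Hochberg over the 45). The exceptions were the share of Mmp19 in the MMP level (exact permutation p = 0.4) and that of Adam10 in the ADAM level (exact permutation p = 0.5).

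**Figure D2:**
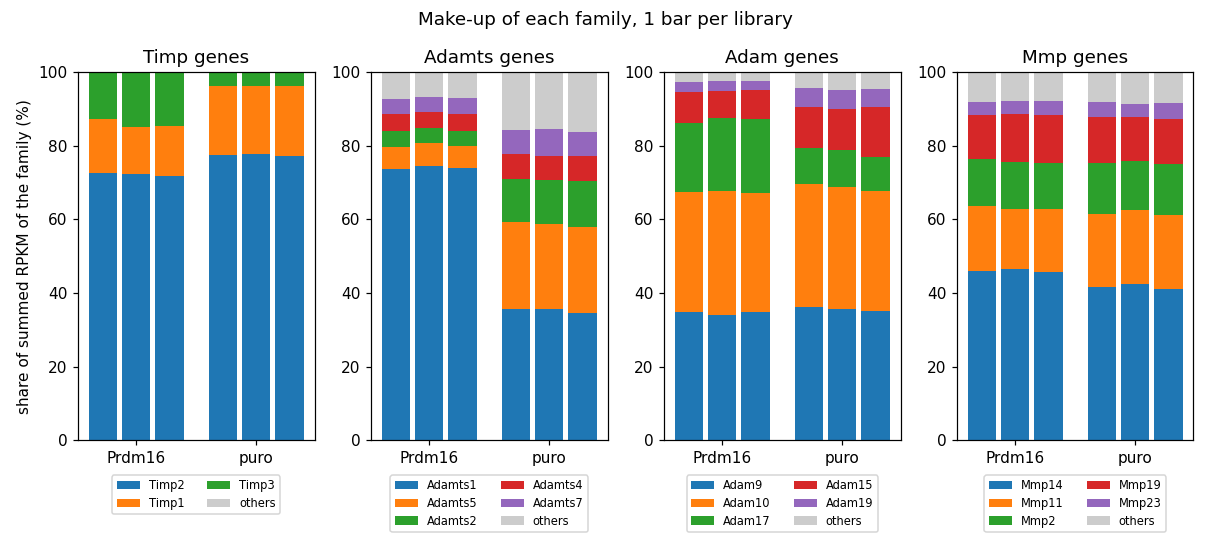
Share of each gene in the summed RPKM of its family, 1 bar per library, with the 3 Prdm16 libraries left of the 3 puro libraries. Timp3 takes 12.8% to 15.0% of the TIMP level in Prdm16 libraries and 3.76% to 3.91% in puro libraries, and Adamts1 takes 73.6% to 74.5% of the ADAMTS level in Prdm16 libraries and 34.6% to 35.6% in puro libraries.

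Among the proteoglycanases, ADAMTS enzymes that cut aggrecan and versican, the members went opposite ways. Adamts1 had 20045, 16235 and 18433 counts in Prdm16 libraries and 8945, 10176 and 9523 in puro libraries, and rose by 0.96 ± 0.03 on the log2 scale to 561 ± 8.59 CPM in Prdm16 libraries, against 288 ± 3.99 CPM in puro libraries (adjusted p = 3.19e-10). Adamts5, an aggrecanase also known to cleave versican, had 3256, 2720 and 2936 counts in Prdm16 libraries and 12181, 13539 and 13071 in puro libraries. It was 4.27-fold lower in the Prdm16 libraries (log2 fold change −2.09 ± 0.04, adjusted p = 2.53e-12). The groups of both genes were far apart and each group's libraries close together.

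Adamts1 and Adamts5 are direct neighbours among the protein-coding genes of chromosome 16, on the same strand, with 53.1 kb between them in GRCm38. The ratio of their levels per kilobase, Adamts1 over Adamts5, was 12.5, 12.1 and 12.8 in Prdm16 libraries and 1.49, 1.53 and 1.48 in puro libraries (exact permutation test, two-sided p = 0.1). Adamts1 thus made up 74.0 ± 0.422% of the summed ADAMTS level in Prdm16 libraries and 35.2 ± 0.592% in puro libraries, and Adamts5 5.93 ± 0.175% and 23.5 ± 0.309% in the same order of groups. The sum itself differed little, at 143 ± 2.69 RPKM in Prdm16 libraries and 154 ± 1.09 RPKM in puro libraries.

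Adamts15 and Adamts9, which also cleave versican or aggrecan, rose as well. Adamts15 had 341, 265 and 254 counts in Prdm16 libraries and 76, 67 and 74 in puro libraries (log2 fold change 2.01 ± 0.13, adjusted p = 9.82e-08). Adamts9 had 502, 428 and 540 counts in Prdm16 libraries and 231, 244 and 231 in puro libraries (1.08 ± 0.08, adjusted p = 2.13e-07). Adamts4, another aggrecanase, fell, with a log2 fold change of −0.71 ± 0.05 (adjusted p = 8.18e-08). Of the 5 tested proteoglycanases 3 therefore rose and 2 fell (60% and 40%, against 37.5% and 38.0% of all tested genes). That is too few genes to set this split apart from that of all genes. Adamts8 and Adamts20 had at most 3 counts over a group. In level per kilobase Adamts15, at 0.851 ± 0.104 RPKM in Prdm16 libraries and 0.212 ± 0.0256 RPKM in puro libraries, stayed far below Adamts1, at 106 ± 1.62 RPKM in Prdm16 libraries and 54.3 ± 0.753 RPKM in puro libraries.

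The procollagen N-propeptidases, which remove the amino-terminal propeptide of fibrillar procollagens, fell in all 3 members (38.0% of all tested genes fell). Adamts2, the main enzyme of this kind in skin, had 2186, 1647 and 1844 counts in Prdm16 libraries and 5117, 5894 and 6041 in puro libraries, a log2 fold change of −1.56 ± 0.05 (adjusted p = 3.74e-10). Adamts14 fell further, with −2.22 ± 0.06 on the log2 scale (adjusted p = 1.19e-10), and Adamts3, at 0.888 ± 0.279 CPM in Prdm16 libraries and 1.58 ± 0.195 CPM in puro libraries, one of −0.82 ± 0.22 (adjusted p = 0.00642). Their summed level per kilobase was 8.62 ± 0.543 RPKM in Prdm16 libraries and 29.1 ± 1.35 RPKM in puro libraries.

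Adamts12 and Adamts7, which cleave cartilage oligomeric matrix protein, both fell (38.0% of all tested genes fell). Adamts12 had 172, 153 and 146 counts in Prdm16 libraries and 1258, 1351 and 1323 in puro libraries (log2 fold change −3.03 ± 0.07, adjusted p = 1.99e-11), and Adamts7 had −0.81 ± 0.05 (adjusted p = 3.19e-08). The median of all tested genes on chromosome 15, where Adamts12 lies, was −0.38, and with chromosome medians removed Adamts12 had −2.65.

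Of the fibrillin-associated pair, Adamts6 passed the test and Adamts10 did not. Adamts6 had 15, 12 and 20 counts in Prdm16 libraries and 894, 1051 and 900 in puro libraries, and so was 58.9-fold lower (log2 fold change −5.88 ± 0.12, adjusted p = 7.85e-12). Adamts10 had 43.2 ± 3.19 CPM in Prdm16 libraries and 45.4 ± 2.52 CPM in puro libraries, with overlapping groups (log2 fold change −0.07 ± 0.06, adjusted p = 0.304). The test of the difference between the 2 genes was not run. Adamts16, whose substrates are little known, had 6, 6 and 12 counts in Prdm16 libraries and 43, 54 and 57 in puro libraries (−2.63 ± 0.26, adjusted p = 3.79e-06). Adamts18, which did not reach the filter, had 5, 12 and 10 counts in Prdm16 libraries and 0, 0 and 1 in puro libraries, 27.5 times as many (interval from counting, 4.54 to 1127). Counting intervals and floors cover counting error only.

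All 5 ADAMTS-like genes were tested and fell, where 38.0% of all tested genes fell, though Adamtsl2 passed the filter through the puro libraries only. Adamtsl2, known to bind fibrillin and latent TGF-beta binding protein, had 1, 4 and 3 counts in Prdm16 libraries and 281, 292 and 347 in puro libraries. Its log2 fold change, −6.75 ± 0.24 (adjusted p = 6.64e-10), was the lowest of any tested member. Adamtsl3 had 102, 69 and 105 counts in Prdm16 libraries and 1739, 2141 and 1920 in puro libraries, and was 20.6-fold lower (−4.36 ± 0.08, adjusted p = 4.26e-12).

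The other 3 moved less. Adamtsl4, known from the fibres that hold the lens, had 882, 571 and 734 counts in Prdm16 libraries and 1088, 1321 and 1458 in puro libraries (−0.80 ± 0.09, adjusted p = 1.37e-05). Adamtsl5 had 1260, 863 and 1036 counts in Prdm16 libraries and 1156, 1300 and 1604 in puro libraries, which overlap as raw counts but not as CPM (35.8, 29.8 and 31.0 in Prdm16 libraries, 37.3, 37.3 and 47.8 in puro libraries), with a log2 fold change of −0.34 ± 0.10 (adjusted p = 0.0093). Adamtsl1 had −0.48 ± 0.14 (adjusted p = 0.0101). Adamtsl4 and Adamtsl5 made up 41.8 ± 0.782% and 53.9 ± 1.02% of the family's level per kilobase in Prdm16 libraries, and Adamtsl3, at 2.87 ± 0.350% there, had 28.2 ± 2.74% in puro libraries.

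**Figure D3:**
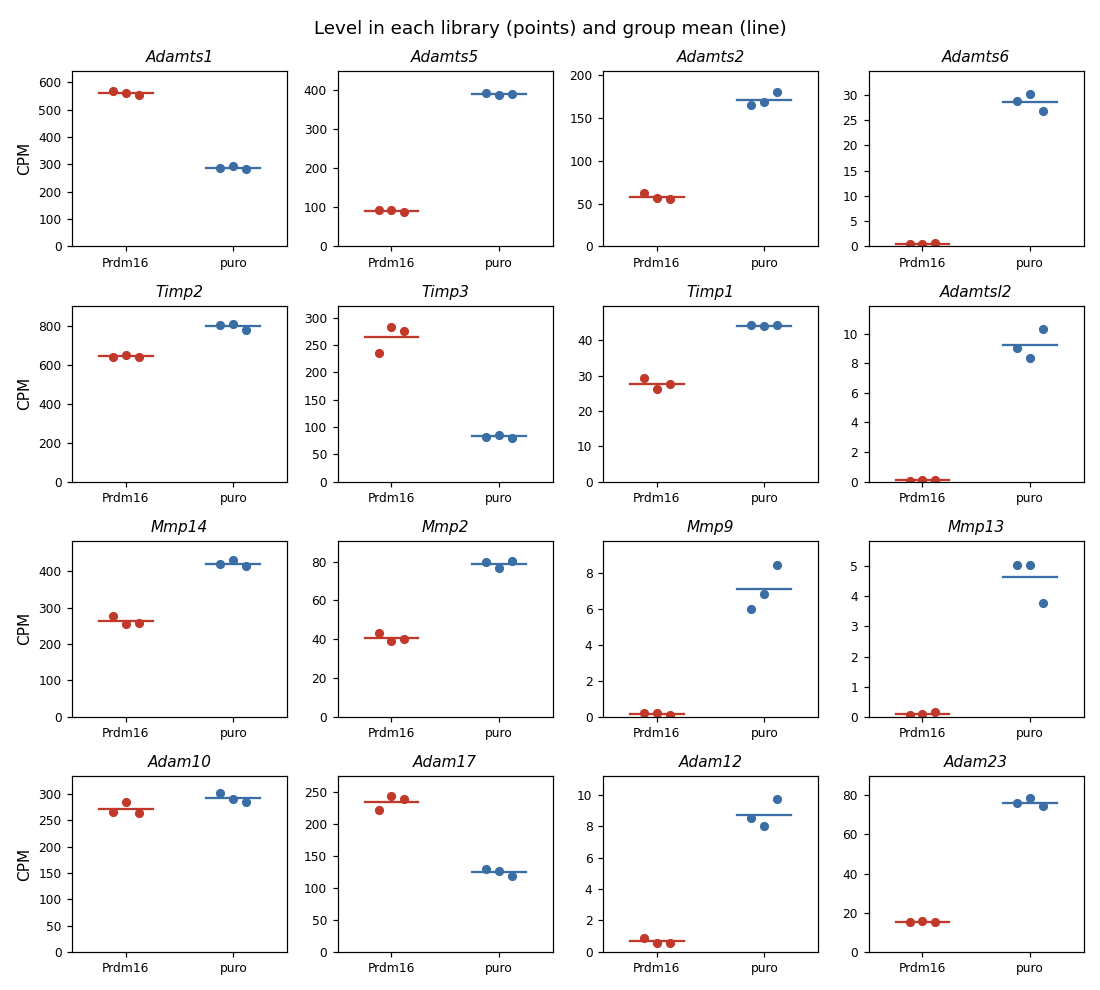
CPM of 16 members in each library, with the Prdm16 libraries left of the puro libraries and a line at each group's mean; every axis starts at 0. Timp3, Adamts1 and Adam17 are higher in all 3 Prdm16 libraries, Adam10 differs little, and Adamts6, Adamtsl2, Mmp9, Mmp13 and Adam12 are near 0 in the Prdm16 libraries.

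The abundant MMPs fell by modest amounts. Mmp14, the membrane-type MMP that cleaves fibrillar collagen at the cell surface and is known to be needed for fat cell formation in dense collagen, had 9701, 7395 and 8612 counts in Prdm16 libraries and 13032, 15030 and 13885 in puro libraries. Its log2 fold change was −0.68 ± 0.04 (adjusted p = 2.60e-08). The median of tested genes on chromosome 14, where it lies, was 0.49, and with chromosome medians removed Mmp14 had −1.17.

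Mmp11, a stromelysin by name that is activated inside the cell and acts little on matrix proteins, had 1742, 1213 and 1509 counts in Prdm16 libraries and 2882, 3305 and 3164 in puro libraries (−1.04 ± 0.05, adjusted p = 1.40e-08). Mmp2, the gelatinase that MMP14 activates, had 1516, 1130 and 1346 counts in Prdm16 libraries and 2484, 2678 and 2699 in puro libraries (−0.95 ± 0.04, adjusted p = 5.59e-09). Mmp19 and the membrane-anchored Mmp23 had log2 fold changes of −0.77 ± 0.04 and −0.96 ± 0.08 (largest adjusted p = 1.29e-06). Of the exon bases of Mmp19, 22.3% overlap Tmem198b on the other strand. Tmem198b had 2305 counts over the Prdm16 group and 2859 over the puro group, against 4153 and 7241 for Mmp19. The part of such reads in the Mmp19 counts was not tested.

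In level per kilobase the order of the leading MMPs was nearly the same in both groups. Mmp14 led with 44.1 ± 1.84 RPKM in Prdm16 libraries and 70.7 ± 1.45 RPKM in puro libraries, followed by Mmp11 with 16.4 ± 1.37 and 33.8 ± 0.335 RPKM in the same order of groups. Mmp2 and Mmp19 did not differ beyond their spread in the Prdm16 libraries, at 12.1 ± 0.610 and 12.1 ± 0.131 RPKM, and had 23.5 ± 0.602 and 20.6 ± 0.448 RPKM in the puro libraries. Mmp28, known from skin and immune cells, had 425, 289 and 351 counts in Prdm16 libraries and 305, 378 and 416 in puro libraries, with overlapping groups (log2 fold change −0.02 ± 0.10, adjusted p = 0.865).

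The other membrane-type genes were low. Of 5 tested membrane-type genes, Mmp14 among them, 3 rose and 2 fell (60% and 40%, against 37.5% and 38.0% of all tested genes). Mmp17 and Mmp24, which rose, passed the filter through the Prdm16 libraries only, so these shares depend on the filter. Mmp15 had 683, 496 and 586 counts in Prdm16 libraries and 305, 402 and 448 in puro libraries (log2 fold change 0.64 ± 0.10, adjusted p = 0.000142). Mmp17, anchored by a lipid tail, had 30, 22 and 29 counts in Prdm16 libraries and 9, 5 and 8 in puro libraries (1.89 ± 0.29, adjusted p = 0.000112). Mmp24 had 15, 10 and 11 counts in Prdm16 libraries and 6, 3 and 7 in puro libraries (1.18 ± 0.39, adjusted p = 0.0166), and its call was lost without Prdm16 replicate 1 (1.06), without puro replicate 2 (0.86) and with DESeq2 (1.19, adjusted p = 0.0966). Of the exon bases of Mmp24, 13.6% overlap BC029722 on the other strand, a gene with 4369 counts over the Prdm16 group and 4768 over the puro group. The part of such reads in the Mmp24 counts was not tested. Mmp16 fell by 0.42 ± 0.08 on the log2 scale (adjusted p = 0.00075). Mmp25, below the filter, had 0, 1 and 5 counts in Prdm16 libraries and 13, 7 and 17 in puro libraries, 6.05-fold lower with a counting interval of 2.53 to 17.5. Despite the 3 rises, the summed level of the membrane-type genes was 48.6 ± 2 RPKM in Prdm16 libraries and 74.3 ± 1.38 RPKM in puro libraries, of which Mmp14 was the larger part.

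Members known as inducible collagenases, gelatinases and stromelysins, which are low in resting tissue, had few counts in the Prdm16 libraries. Mmp13, the main collagenase of mice, had 2, 3 and 5 counts in Prdm16 libraries and 157, 176 and 127 in puro libraries (log2 fold change −5.44 ± 0.28, adjusted p = 1.28e-08). Mmp3, a stromelysin that also activates other pro-MMPs, had 18, 15 and 19 counts in Prdm16 libraries and 245, 271 and 201 in puro libraries (−3.75 ± 0.18, adjusted p = 6.41e-09). Mmp9, a gelatinase, had 8, 6 and 3 counts in Prdm16 libraries and 187, 238 and 285 in puro libraries (−5.32 ± 0.26, adjusted p = 7.55e-09). For each of the 3 genes the lowest puro library was far above the highest Prdm16 library.

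Mmp9 and Mmp12 are known as products of neutrophils and macrophages. The neutrophil markers summed to 0.0284 to 0.104 CPM in Prdm16 libraries and 0.0323 to 0.229 CPM in puro libraries, with S100a9 and Csf3r at 0 in all 6. The 7 macrophage markers in the table summed to 8.42 to 8.66 CPM in Prdm16 libraries and 12.8 to 13.9 CPM in puro libraries, nearly all from Cd68 and Cd14. Cd14 fell, with 360 counts over the Prdm16 group and 912 over the puro group (log2 fold change −1.31), and Cd68, with 450 and 384 counts in the same order of groups, did not pass. Of the untested markers, Csf1r had 9 counts over the Prdm16 group and 31 over the puro group, Mrc1 2 and 5, Itgam 5 and 4, and Ptprc 7 and 0, in that order of groups, and C1qa was at 0 in all libraries. The part of these cell types in the Mmp9 and Mmp12 differences was not tested.

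Mmp13 and Mmp3 lie in a cluster of 10 Mmp genes on chromosome 9, in the order Mmp13, Mmp12, Mmp1b, Mmp3, Mmp1a, Mmp10, Mmp8, Mmp27, Mmp20 and Mmp7. The cluster held 22, 20 and 26 counts in Prdm16 libraries and 420, 463 and 337 in puro libraries. All 7 of its genes with any count had more over the puro group, in raw counts not scaled to library size, but only Mmp13 and Mmp3 were tested. Mmp1a, Mmp8 and Mmp10 had 0, 1 and 0 counts over the Prdm16 group and 1, 2 and 4 over the puro group, too few to give a direction. Mmp12, the macrophage elastase, had 0 counts in Prdm16 libraries and 4, 7 and 3 in puro libraries, at least 3.25-fold lower by the exact 95% interval from counting (4.58-fold against a floor of 3 counts over the group). Mmp27 had 5 counts over the Prdm16 group and 22 over the puro group, 4.32-fold lower with a counting interval of 1.59 to 14.6. The AP-1 motif printed above for Mmp13 and Mmp3 was in a promoter window of 8 of the 10 cluster genes, and the GC box in none; a match is a sequence description and not a measured site. The median log2 fold change of tested genes on chromosome 9 was −0.11.

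**Figure D4:**
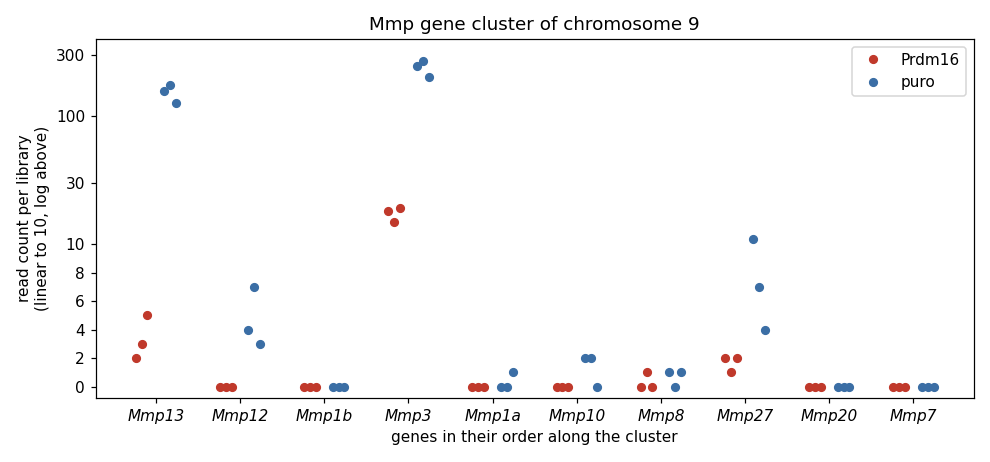
Read counts in each library of the 10 Mmp genes of the chromosome 9 cluster in their order along it, Prdm16 libraries left of puro libraries; the axis is linear to 10 and logarithmic above. Mmp13 with 460 and Mmp3 with 717 hold most of the 1220 counts of the puro group, and Mmp1b, Mmp20 and Mmp7 have none in any library.

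Of the 3 most abundant sheddases, Adam17 rose, while Adam9 and Adam10 were slightly lower. Adam17, the sheddase of TNF and of several EGF receptor ligands, had 7834, 7073 and 7978 counts in Prdm16 libraries and 3988, 4418 and 4010 in puro libraries, and rose by 0.91 ± 0.05 on the log2 scale to 235 ± 11.4 CPM in Prdm16 libraries, against 125 ± 4.80 CPM in puro libraries (adjusted p = 8.73e-09). Adam10, which cleaves Notch receptors and cadherins, had 9376, 8248 and 8838 counts in Prdm16 libraries and 9365, 10112 and 9574 in puro libraries. Its log2 fold change was −0.10 ± 0.04 (adjusted p = 0.0324), a call lost under 8 of 15 other settings, among them DESeq2 (adjusted p = 0.0562), the removal of the chromosome median (0.01, adjusted p = 0.911) and the omission of Prdm16 replicate 1 (−0.08) or 3 (−0.08) or of puro replicate 1 (−0.08) or 2 (−0.11). Adam9 had 8447, 7047 and 7989 counts in Prdm16 libraries and 8450, 9177 and 8632 in puro libraries (−0.13 ± 0.03, adjusted p = 0.00409).

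Per kilobase, Adam9 (58.5 ± 0.540 RPKM) and Adam10 (55.4 ± 2.28 RPKM) led the family in the Prdm16 libraries, and likewise in the puro libraries (64.2 ± 1.88 and 59.5 ± 1.76 RPKM). Adam17 came next in the Prdm16 libraries with 32.9 ± 1.59 RPKM, ahead of Adam15 with 13.6 ± 0.712 RPKM, whereas in the puro libraries Adam17 had 17.5 ± 0.671 RPKM and Adam15 21.4 ± 2.18 RPKM. The ratio of Adam17 to Adam10 per kilobase was 0.574, 0.589 and 0.620 in Prdm16 libraries and 0.292, 0.3 and 0.288 in puro libraries (exact permutation test, two-sided p = 0.1).

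The other somatic ADAMs fell. Adam12, which is high in muscle precursors and fibroblasts and cleaves IGF binding proteins, had 31, 16 and 18 counts in Prdm16 libraries and 264, 279 and 326 in puro libraries, 13.1-fold lower (log2 fold change −3.71 ± 0.17, adjusted p = 4.46e-09). Its close relative Adam19, known for shedding neuregulin, had −1.10 ± 0.04 (adjusted p = 1.39e-09). Adam15 had −0.66 ± 0.07 and the leukocyte-associated Adam8 −0.73 ± 0.10 (largest adjusted p = 5.67e-05). Adam33 and Adam28 were below the filter, with at most 6 counts over a group.

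Adam23, Adam22 and Adam11, relatives without the zinc-binding active site that are known as receptors of LGI proteins in nerve cells, went both ways. Adam23 had 529, 450 and 512 counts in Prdm16 libraries and 2352, 2738 and 2504 in puro libraries, 4.99-fold lower (−2.32 ± 0.04, adjusted p = 4.44e-12). Adam22 had 21, 12 and 14 counts in Prdm16 libraries and 34, 44 and 39 in puro libraries (−1.28 ± 0.22, adjusted p = 0.000276). Adam11 had 113, 95 and 93 counts in Prdm16 libraries and 61, 58 and 81 in puro libraries, and rose by 0.62 ± 0.16 on the log2 scale (adjusted p = 0.00386).

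Of 21 ADAM genes known from testis or epididymis, 4 were tested. Adam1a, a subunit of the sperm protein fertilin, had 416, 305 and 342 counts in Prdm16 libraries and 210, 228 and 158 in puro libraries (0.86 ± 0.13, adjusted p = 7.98e-05). Its count is uncertain, since 63.7% of its exon bases lie in exons of Gm42878 and 24% in those of Mapkapk5, both on the same strand. Adam32 had 10, 15 and 13 counts in Prdm16 libraries and 23, 19 and 21 in puro libraries (−0.69 ± 0.29, adjusted p = 0.0453), a call lost under 7 of 14 other settings, with the adjusted p at up to 0.179. It was lost without Prdm16 replicate 1 (−0.48) or 3 (−0.69) and without puro replicate 1 (−0.58) or 3 (−0.71). Adam5 (−0.08 ± 0.26) and Adam4 (0.63 ± 0.37) did not pass; for Adam4 the adjusted p was 0.149 with all libraries and 0.0469 without puro replicate 2 (1.06).

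The 36 untested members held at most 37 counts over a group. No count was seen in any library for 16 of them, 11 had 1 to 9 counts in all, and 9 had 10 or more. Of those 9 not yet named, Adam3 had 9 counts over the Prdm16 group and 1 over the puro group (ratio 9.18, counting interval 1.27 to 402), Adam21 15 and 10 (1.53, 0.643 to 3.81) and Adamts17 13 and 16 (0.828, 0.367 to 1.84), in the same order of groups. Members close to each other in sequence may have had reads split or lost in counting, which was not tested.

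Other genes around these proteases, in 6 lists with 77 genes in the table, divided into 18 that rose, 35 that fell and 6 that did not pass, of 59 tested, with a median log2 fold change of −0.27. That is 89.8% called against 75.6% of all tested genes, 30.5% higher against 37.5% and 59.3% lower against 38.0%. As with the members, a list gene could pass the filter through the group where it is high. Some that rose passed through the Prdm16 libraries only, among them Pcsk5 and Spock3. Of 11 tested genes of protease activation and docking, 3 rose, 5 fell and 3 did not pass (72.7% called, against 75.6% of all tested genes). Plat, the tissue plasminogen activator, changed by −2.51 ± 0.04 on the log2 scale, the hyaluronan receptor Cd44 of −0.79 ± 0.04 and the integrin subunit Itgb3 of −0.96 ± 0.07 (largest adjusted p = 1.38e-07). Pcsk5, a proprotein convertase of the furin family, rose, with 727 counts over the Prdm16 group and 9 over the puro group (6.30 ± 0.21, adjusted p = 3.74e-10).

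Of 6 tested genes of other inhibitors and clearance, 2 rose, 3 fell and 1 did not pass (83.3% called). Serpine2, a serine protease inhibitor, had a log2 fold change of −1.35 ± 0.05, and Lrp1, the endocytic receptor that clears protease complexes, one of −0.72 ± 0.04 (largest adjusted p = 2.48e-08). Spock3, a testican, had 65 counts over the Prdm16 group and 0 over the puro group, at least 17.5-fold higher by the exact 95% interval from counting (22.1-fold against a floor of 3 counts over the group). Reck, the membrane-anchored MMP inhibitor, named here after its values were seen, had 40.5 ± 0.526 CPM in Prdm16 libraries and 39.2 ± 2.41 CPM in puro libraries (0.05 ± 0.05, adjusted p = 0.412). Among 6 tested related proteases and procollagen enhancers, 2 rose and 4 fell (33.3% higher and 66.7% lower). The pappalysins moved apart, Pappa with 1.53 ± 0.07 and Pappa2 with −3.72 ± 0.16, and the procollagen C-proteinase enhancers Pcolce and Pcolce2 had −0.60 ± 0.04 and −1.29 ± 0.05 (largest adjusted p = 2.19e-07).

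The partners of ADAM10 and ADAM17 divided into 4 higher and 4 lower of 8 tested, an even split as over all tested genes (37.5% higher and 38.0% lower). Rhbdf2, which carries ADAM17 to the cell surface, fell, with 78 counts over the Prdm16 group and 1583 over the puro group (−4.31 ± 0.11, adjusted p = 5.26e-11). The tetraspanins Tspan15 and Tspan14, which escort ADAM10, rose by 1.55 ± 0.05 and 1.14 ± 0.04, and Tspan17 had −1.36 ± 0.08 (largest adjusted p = 2.41e-08). Rhbdf1, the close relative of Rhbdf2 and named after its values were seen, had −0.24 ± 0.08 (adjusted p = 0.0211). Of 15 tested membrane proteins known to be shed, 5 rose, 9 fell and 1 did not pass (33.3% higher against 37.5% of all tested genes, and 60.0% lower against 38.0%). Kitl, the KIT ligand, rose by 1.37 ± 0.04, while Nrg1 had −1.70 ± 0.07, Il6ra −0.80 ± 0.05 and App −0.55 ± 0.03 (largest adjusted p = 6.79e-08). Among 13 tested matrix substrates and partners, 2 rose, 10 fell and 1 did not pass (15.4% higher and 76.9% lower): the 2 fibrillins parted, Fbn2 with 6.97 ± 0.07 and Fbn1 with −1.52 ± 0.04, the collagen chain Col1a2 had −4.18 ± 0.06 and biglycan, Bgn, −1.52 ± 0.03 (largest adjusted p = 2e-11).

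**Figure D5:**
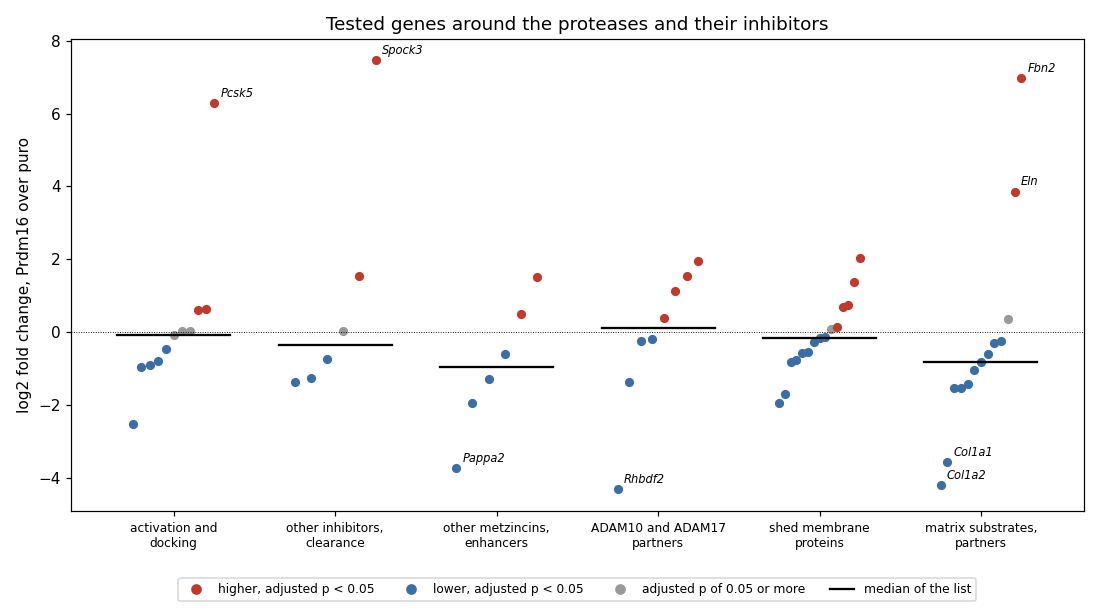
Log2 fold changes, Prdm16 over puro, of the 59 tested genes in 6 lists around the proteases, with a line at each list's median and colours for the call. Pcsk5 and Fbn2 stand far above 0 and Rhbdf2, Pappa2 and Col1a2 far below (Eln and Col1a1 were labelled after their values were seen). The fitted value of Spock3 has 0 counts behind it in the puro group and is no measure of size.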

How the data were processed

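Polyadenylated RNA of 6 libraries was sequenced. Per the labels and the files, the authors deposited raw counts, whole numbers for each symbol, without normalization. The submitters' processing notes name STAR, featureCounts, Subread and the build mm9, with no role or order; no source used here gives versions, strand setting or the treatment of shared reads. Groups and replicate numbers came from the sample titles. The members and gene lists were chosen with earlier results of these data known.

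The tests used edgeR 4.0.16 (R 4.3.3). Its filterByExpr, given the groups, kept 13805 of 24197 genes; the rest held 0.0297% of the counts. After TMM scaling, a two-sided quasi-likelihood test was fitted across all kept genes. RPKM used the union of exons of GENCODE M21 (GRCm38), matched by symbol for all 84 members; that build differs from mm9. Promoter windows were from RefSeq, GRCm38.p6. The fit was tested on simulated data.

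Counts per library were printed for Timp1 to Timp4 and, in each other family, for the 3 most abundant tested members, the 3 largest rises and the 3 largest falls. Outside this rule they were also printed for Mmp12, Mmp25, Mmp28, Adam32 and Adamts18. From each list the 4 genes of smallest p were named, except 1 gene that is not reported here. Between replicates the chi-square per gene was 2.08 to 8.85, where sampling noise alone gives 1. Alternatives were RLE and upper-quartile scaling, 2 other filters, DESeq2 1.42.0, limma-voom 3.58.1, a replicate block, Prdm16 left out and each library left out. One chosen after seeing the data removed the median log2 fold change of each chromosome.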

Additional observations from a re-analysis of the deposited data

How the results depend on the processing

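Of the 48 tested members, 42 kept their direction and their side of the threshold under every alternative in which they were tested. The exceptions were Adam10, Adam32, Mmp24, Adam4, Adam5 and Mmp28. The number of members higher ran from 8 to 12 and of members lower from 32 to 36 over all settings. Leaving out 1 library at a time gave 9 to 11 higher and 32 to 35 lower. The median log2 fold change of the tested members, −0.70, was −0.78 when genes needed 1 CPM in 3 libraries, which tests fewer members, and −0.72 to −0.67 with 1 library left out. Signs turned for Adam10 with chromosome medians removed (0.01), for Adam5 without Prdm16 replicate 3 (0.12), and for Mmp28 with chromosome medians removed (0.03), without Prdm16 replicate 2 (0.03) or 3 (0.01) and without puro replicate 3 (0.07). With 1 library left out, Adam5 ran from −0.29 to 0.12 and Mmp28 from −0.1 to 0.07. The cause was not tested.

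The labels state no pairing of samples by replicate number. The deviations of same-numbered libraries from their group means had correlations of −0.164, 0.099 and −0.067. Deviations from a mean of 3 libraries offset each other, so these correlations cannot tell whether the samples were made in pairs. With the replicate block 10 members were higher and 32 lower, and Adam10 (adjusted p = 0.0626) and Adam32 (adjusted p = 0.0816) lost their calls. Not every library correlated best with its own number. The 36 untested members had too few counts for the fit, so that only counting intervals could be given for some of them. Whether low depth or absent expression lay behind this was not tested.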
